A study of Homo sapiens with 21 samples.

Results

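Hs746T is a human gastric carcinoma line that depends on the receptor tyrosine kinase MET, which it carries amplified and with a splice-site change that skips an exon. Cabozantinib inhibits MET together with the VEGF receptors, AXL and other kinases. Cabozantinib-resistant line 2 is the second of a pair of lines that were grown in rising doses until they proliferated in 1 µM drug. It was compared with a control line that had been passaged in DMSO over the same period. Both were exposed to 1 µM cabozantinib for 72 h before total RNA was hybridised to Affymetrix expression arrays. The comparison rests on 6 of the 21 arrays of the study, 3 of line 2 and 3 of the control line, chosen by the sample titles. The spread behind its p-values was estimated from all 21 arrays. Used beside them were 3 arrays of the control line in 0.1% DMSO for 72 h and 3 of cabozantinib-resistant line 1 on 1 µM cabozantinib for 72 h. A further 3 arrays of the control line on 1 µM crizotinib and 3 of each of 2 crizotinib-resistant lines on that drug share no array with the comparison. Crizotinib is a second inhibitor of MET. The labels call the arrays of a group biological replicates. Whether a line is a clone or a mixed population is not given in the sources used here, and p-values carry over to this line, not to resistance in general. Line 2 without drug was not analysed here, so in comparisons with DMSO the line and the drug cannot be told apart.

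MET passes growth factor signals through adaptors to the RAS, RAF, MEK and ERK kinase cascade. ERK in turn drives cyclin D1 and the passage of cells into S phase, and switches on its own inhibitors of the DUSP, SPRY and SPRED families. In cells addicted to MET, an inhibitor therefore lowers ERK-dependent transcripts within hours and the transcripts of dividing cells over days. Lines that proliferate in an inhibitor are known in general to restore growth signals by changes in the target, by other receptor kinases or further down the cascade.

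The values are log2 RMA levels, in which a difference of 1 is 2-fold, and they are compared between groups within a gene. The table has no detection calls, so low levels could not be called absent. Correlations between arrays were 0.984 to 0.986 within line 2, 0.978 to 0.980 within the control line on cabozantinib and 0.961 to 0.966 between them. The median SD over probe sets was 0.186 in that control group and 0.157 in line 2. Over the 6 arrays the mesenchymal markers were at 11.36 to 11.71 (FN1, fibronectin), 7.14 to 7.91 (CDH2, N-cadherin), 6.70 to 6.82 (VIM) and 4.89 to 5.22 (ZEB1). Of the epithelial and gastric markers, KRT8 and KRT18 lay between 4.23 and 5.12, and CDH1, MUC5AC and TFF1 between 3.08 and 3.69. Levels of different probe sets cannot be ranked, so these values do not settle an epithelial or mesenchymal identity. The leukocyte marker PTPRC was at 1.5 or below and the stromal markers LUM and DCN at 1.19 to 1.62 in both groups. The mean of the 4 measured fibroblast markers was 2.49 to 2.53 in line 2 and 3.30 to 3.44 in the control line, with COL1A1 as the member that differed. Whole chromosomes lie outside the named genes: symbols were joined for 0 genes of chromosomes 5, 6, 8, 9 and X, 2 of chromosome 7 and 218 of chromosome 4. MET, HGF, EGFR, MYC, COL1A2 and most genes of the MHC were therefore not analysed here. Every ranking of single genes and every count over a gene list below covers the measured genes only, as few as 3 of 15 for antigen presentation and 8 of 22 for receptor ligands.

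A gene was called at an adjusted p under 0.05, from limma moderated over all 34235 probe sets with Benjamini-Hochberg adjustment. Line 2 was called higher than the control line on cabozantinib in 3292 probe sets, 9.62% of those tested, and lower in 2502, or 7.31%. At least 2-fold, 899 were higher (2.63%) and 448 lower (1.31%). In either direction 16.9% of probe sets were called, and in 29.0% the 3 arrays of one group all lay above those of the other. Over the 18253 genes with a symbol, 14.0% were called higher and 10.4% lower, and these shares are the background over genes of all levels for the lists below. Of all calls, 56.8% were higher, and 49.0% when the arrays were quantile-normalized again. The median difference over named genes was -0.02. Among named genes whose mean reached 5, 31.5% were called higher and 23.4% lower. Lists whose members mostly reach that level are to be read against these larger shares.

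**Figure D1:**
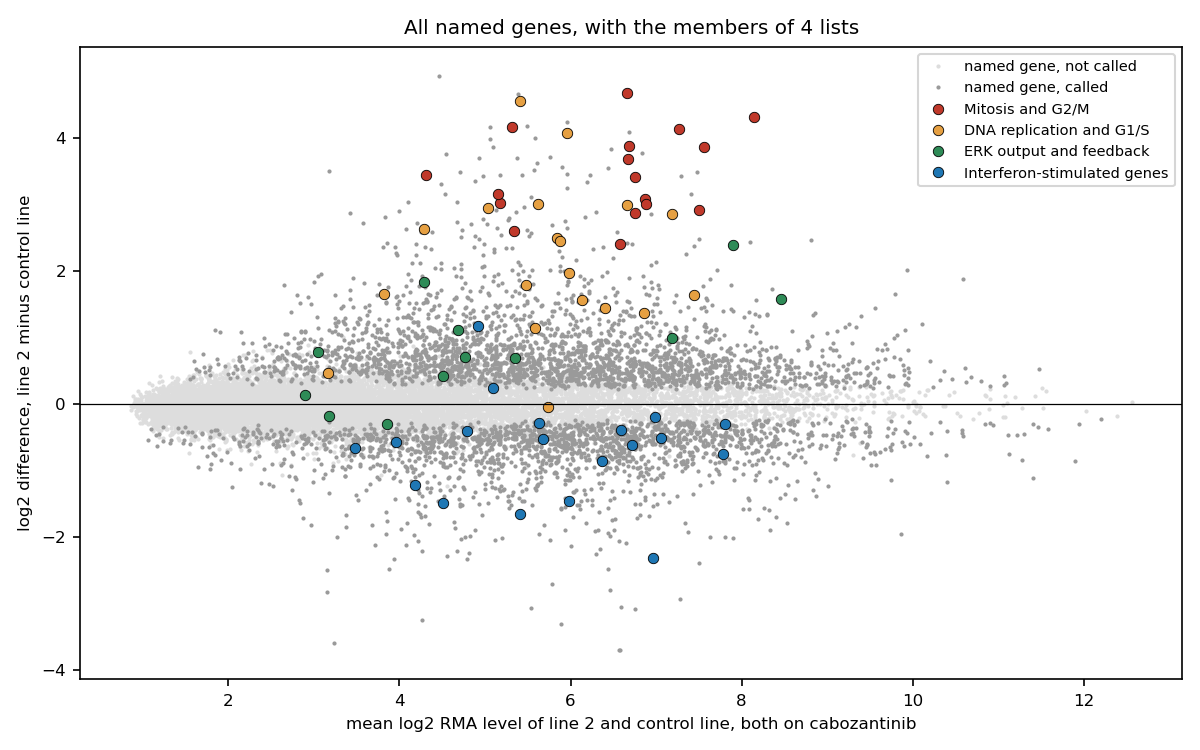
Log2 difference of line 2 minus the control line, both on cabozantinib, against the mean log2 RMA level of both groups. Each point is a named gene. All 17 mitosis genes (red) lie between 2.40 and 4.68, and interferon-stimulated genes (blue) mostly below 0, with OAS3 at 1.17 among the exceptions.

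The largest differences were in genes of cell division. All 17 measured mitosis and G2/M genes rose in line 2, by 2.40 to 4.68 on the log2 scale, with a median of 3.42. PLK1, the kinase that drives entry into and progress through mitosis, was at 9.03, 8.93 and 9.02 on the line 2 arrays and at 4.47, 5.03 and 3.46 on the control arrays. The groups were far apart, a log2 difference of 4.68 (SE 0.32, n = 3 and 3, limma adjusted p = 8.77e-09). AURKB, the kinase of the chromosomal passenger complex, was at 10.31, 10.30 and 10.31 in line 2 and at 5.57, 6.93 and 5.48 in the control line. That is a difference of 4.31 (SE 0.36, limma adjusted p = 1.17e-07). Of the 12 largest rises of single genes, further ones encode kinetochore and spindle proteins, in the list or outside it. They were SPC25 (4.94) and NDC80 (4.16) of the NDC80 complex, SKA1 (4.66), the checkpoint kinase BUB1 (4.16), TPX2 (4.14) and DLGAP5 (4.23). DEPDC1, also among the 12, rose by 4.18. TOP2A, the topoisomerase that untangles chromosomes, rose by 3.86, the proliferation marker MKI67 by 3.69 and CDK1 by 3.42.

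The control arrays were not alike in these genes. The mean level of the 17 mitosis genes was 4.46, 5.40 and 4.32 on control replicates 1 to 3, and 8.20, 8.20 and 8.12 in line 2. Replicate 2 of the control line was thus the highest of its group, as it was for AURKB, DLGAP5, DEPDC1 and TPX2. On crizotinib, replicate 2 of the control line was also the highest for AURKB (5.56, 7.33 and 5.80) and DLGAP5 (3.44, 5.37 and 3.65). With the replicate number as a block, all 17 mitosis genes stayed called. Leaving out any single array kept all 17 mitosis genes called. On whole populations of cells, a larger share of dividing cells and more mRNA per cell cannot be told apart.

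The genes of DNA replication and G1/S rose almost as widely, 17 of 19 with a median of 1.97. GINS2, a subunit of the replicative helicase, was at 7.75, 7.62 and 7.68 in line 2 and at 3.07, 3.54 and 2.79 in the control line. The difference was 4.55 (SE 0.18, limma adjusted p = 3.55e-11). TK1, thymidine kinase, rose by 4.07. DTL, a ubiquitin ligase receptor that acts in S phase and is not in the list, rose by 4.09. CDC6, which helps to load the helicase, was at 8.10 to 8.27 in line 2 and at 5.02 to 5.43 in the control line, and CDC45 (3.02) and ORC1 (2.95) rose by about as much. MCM2, MCM5 and MCM6 of the helicase rose by 1.65, 1.56 and 1.37. The exceptions were CCNE1, cyclin E, at -0.04 (limma adjusted p = 0.851), and E2F2 at 0.46 (limma adjusted p = 0.184). E2F1, the transcription factor that drives this programme, rose by 1.79.

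Cell cycle promoters carry known elements. The CCAAT box binds NF-Y, the CHR element (TTTGAA) binds the DREAM and MuvB complexes that time late cell cycle genes, and E2F sites (here TTTGGCGC or TTTCCCGC) time the replication genes. RefSeq promoter sequences (GRCh38.p14) were at hand for 13 of the 17 mitosis genes and 18 of the 19 replication genes, and the 250 bases before the start site were searched on both strands. CCAAT was in 13 of 13 mitosis promoters and 12 of 18 replication promoters, against 33% of all 27305 promoters. The CHR letters were in 8 of 13 (61.5%) and 1 of 18 (5.56%), against 13.6%. The E2F letters were in 1 of 13 (7.69%) and 8 of 18 (44.4%), against 1.96%. A match describes the letters in this window and not a bound site. The promoters of PLK1 (chr16:23678639-23678888, plus strand), AURKB (chr17:8210226-8210475, minus strand), GINS2 (chr16:85688955-85689204, minus strand) and TK1 (chr17:78187205-78187454, minus strand) are shown, since these have the largest differences in the mitosis list (PLK1, AURKB) and the replication list (GINS2, TK1). They are written 5′ to 3′ towards the start site, with motif matches in capitals.
PLK1: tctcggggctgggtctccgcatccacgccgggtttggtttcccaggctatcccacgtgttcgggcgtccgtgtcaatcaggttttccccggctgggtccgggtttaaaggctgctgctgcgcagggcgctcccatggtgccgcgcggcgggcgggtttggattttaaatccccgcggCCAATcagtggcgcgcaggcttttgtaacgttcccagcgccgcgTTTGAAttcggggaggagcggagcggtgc
AURKB: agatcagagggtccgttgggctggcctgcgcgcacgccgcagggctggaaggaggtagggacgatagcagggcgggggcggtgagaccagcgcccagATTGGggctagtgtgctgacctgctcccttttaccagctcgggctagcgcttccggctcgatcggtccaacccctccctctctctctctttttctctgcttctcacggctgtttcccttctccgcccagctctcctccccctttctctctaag
GINS2: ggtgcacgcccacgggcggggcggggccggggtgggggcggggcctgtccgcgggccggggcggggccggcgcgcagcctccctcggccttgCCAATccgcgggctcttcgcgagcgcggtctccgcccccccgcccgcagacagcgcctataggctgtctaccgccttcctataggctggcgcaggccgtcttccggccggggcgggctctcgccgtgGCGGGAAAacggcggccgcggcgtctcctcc
TK1: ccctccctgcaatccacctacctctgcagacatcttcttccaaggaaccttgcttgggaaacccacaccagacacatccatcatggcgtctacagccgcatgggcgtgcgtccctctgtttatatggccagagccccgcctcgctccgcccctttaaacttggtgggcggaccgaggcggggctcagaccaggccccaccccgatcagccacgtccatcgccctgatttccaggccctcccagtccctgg
In PLK1 the capitals mark a CCAAT box and a CHR. In AURKB they mark a CCAAT box on the opposite strand. In GINS2 they mark a CCAAT box and an E2F match on the opposite strand. TK1 holds none of these letters.

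Against the control line on DMSO, 8.98% of named genes were called higher in line 2 and 10.0% lower. None of the 17 mitosis genes was called in that comparison, with differences of -0.70 to 0.31 and 95% intervals that lay within 2-fold for 9 of them (limma; KIF11 and UBE2C had unadjusted intervals that excluded 0). The spread of a gene was pooled within all 7 groups. AURKB had an SD of 0.81 in the control line on cabozantinib, 0.07 on DMSO and 0.01 in line 2. BUB1 was uncalled at -0.32 (limma adjusted p = 0.655), yet lay at 7.22 to 7.48 in line 2 and 7.67 to 7.74 on DMSO. The absence of a call thus does not show equal levels. PLK1 was at 8.90, 8.81 and 8.79 on DMSO, close to its level in line 2. Of the 19 replication genes, 9 were below DMSO and 1 above. CDC6 stood at 9.44, 9.35 and 9.34 on DMSO and at 8.10, 8.27 and 8.11 in line 2, and the difference of ORC1 was -1.28. GINS2 was the gene above DMSO, by 0.81 (limma adjusted p = 0.00537). In the control line itself, cabozantinib had lowered all 17 mitosis genes and 18 of the 19 replication genes, where 14.3% of named genes fell. That contrast uses the same control arrays on cabozantinib.

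**Figure D2:**
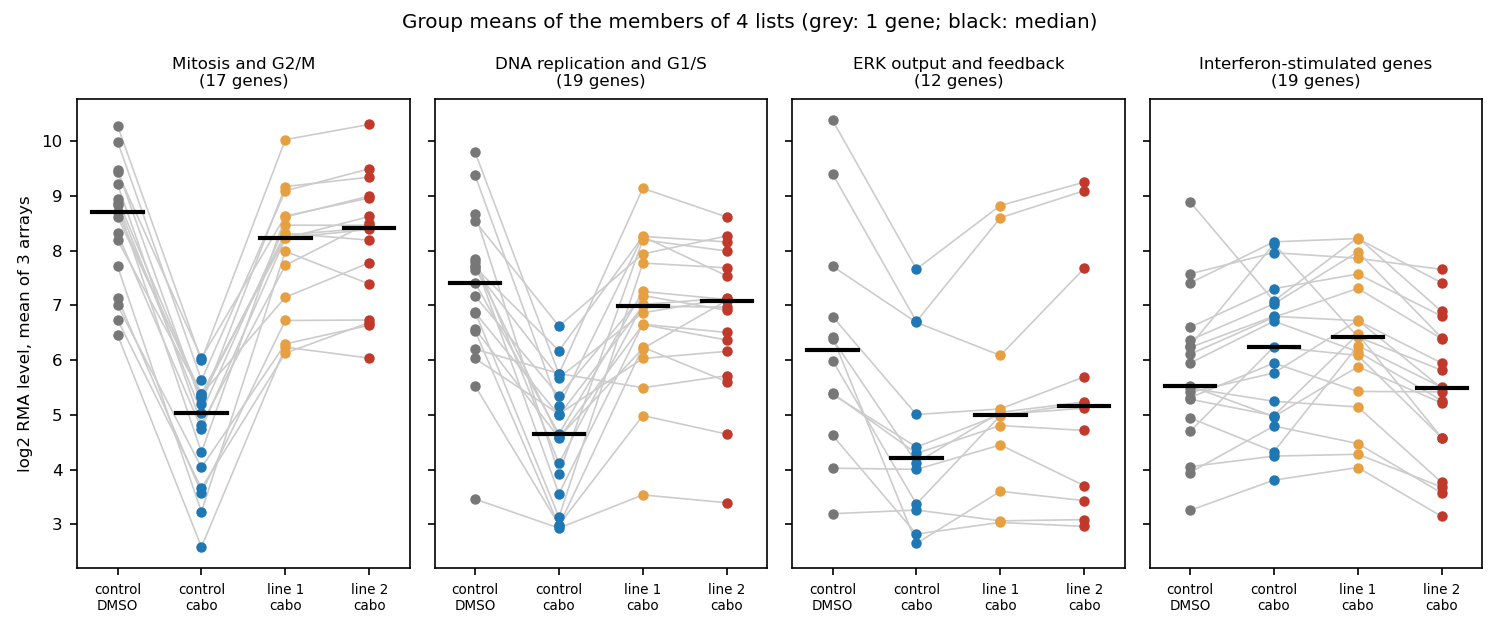
Mean log2 RMA level of each measured member of 4 gene lists in the control line on DMSO, the control line on cabozantinib, resistant line 1 and resistant line 2. Grey lines join 1 gene and black bars are medians, for the mitosis genes 8.70, 5.04, 8.23 and 8.41.

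ERK output showed another pattern. Of 12 measured ERK-dependent genes, 8 rose in line 2 and none fell, with a median difference of 0.75. CCND1, cyclin D1, was at 9.13, 9.03 and 9.13 in line 2 and at 6.57, 6.90 and 6.65 in the control line on drug (difference 2.39, SE 0.10, limma adjusted p = 8.1e-11). On DMSO it was at 9.37, 9.40 and 9.42, and its difference from line 2 was not called (-0.30, limma adjusted p = 0.0692). SPRY2, a feedback inhibitor of receptor signalling, rose by 0.99 and differed from DMSO by -0.04 (limma adjusted p = 0.906).

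Other feedback genes stayed well under the DMSO level. DUSP6, the phosphatase that dephosphorylates ERK, was at 3.40, 3.63 and 3.27 in line 2, 2.80, 2.61 and 2.56 in the control line on cabozantinib, and 6.10, 6.30 and 6.88 on DMSO. Line 2 was thus higher than the drug-treated control by 0.78 (SE 0.16, limma adjusted p = 0.00215). Its difference from DMSO was -2.99 (limma adjusted p = 1.4e-09). In all, 7 of the 12 ERK genes were called below DMSO. FOSL1, an AP-1 transcription factor, rose by 1.59 against the control on drug and differed from DMSO by -1.13. ETV5 (1.84 and -0.78), SPRED2 (1.11 and -1.15) and DUSP5 (0.69 and -1.10) likewise lay between both control groups. PHLDA1 rose by 0.71. ETV4, an ETS factor downstream of ERK, was at 2.96 on average in line 2 and 2.82 in the control on drug (limma adjusted p = 0.7), against 4.63 on DMSO.

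**Figure D3:**
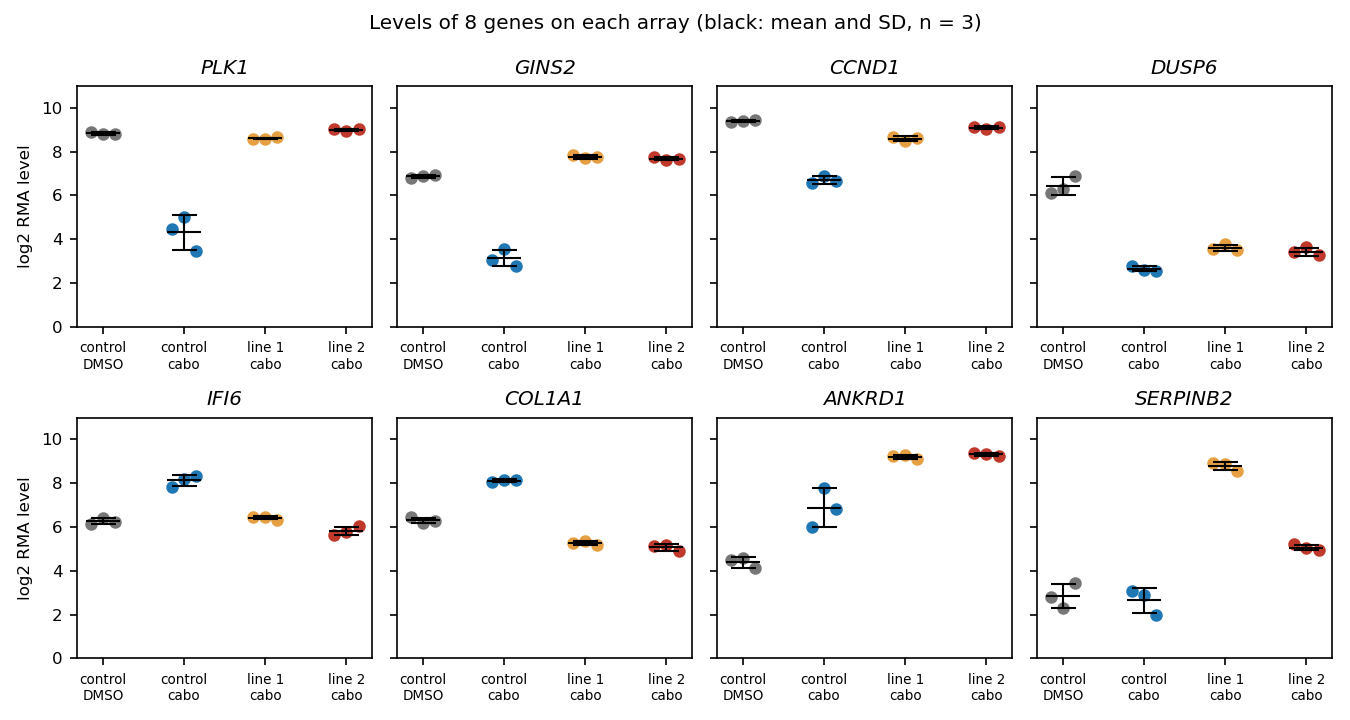
Log2 RMA levels of 8 genes on each of 3 arrays per group, with the mean and SD in black. PLK1, GINS2 and CCND1 in line 2 sit near or above the DMSO arrays and far above the drug-treated control, while DUSP6 in line 2 (3.27 to 3.63) stays below DMSO (6.10 to 6.88).

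Receptor and adaptor genes changed in both directions. Of 9 measured genes of MET adaptors and partners, STAT3, a transcription factor activated by receptor and cytokine signals, fell by 1.59. It was between 7.46 and 7.60 in line 2 and at 9.16, 8.94 and 9.22 in the control line (SE 0.09, limma adjusted p = 8.43e-10), with no overlap. SHC1 fell by 0.45, and PTPN11, which encodes the phosphatase SHP2, rose by 0.52. CBL was called at 0.23 (limma adjusted p = 0.044), and its adjusted p was 0.0533 to 0.141 without any 1 of the 6 arrays. Of 10 measured alternative receptor kinases, 3 rose and 1 fell. EPHA2, an ephrin receptor, was at 7.13, 7.11 and 7.20 in line 2 and at 4.49, 5.33 and 5.11 in the control line (2.17, SE 0.17, limma adjusted p = 5.99e-08). On DMSO it was at 7.65, 7.65 and 7.63.

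IGF1R, the receptor of insulin-like growth factors, was at 5.83, 5.59 and 5.80 in line 2, 4.24, 4.13 and 4.46 in the control on drug and 2.73, 2.84 and 2.76 on DMSO. Line 2 was above the former by 1.46 (SE 0.13, limma adjusted p = 2.07e-07) and above the latter by 2.96. INSR, the insulin receptor, fell by 0.48 against the control on drug and was above DMSO by 0.92. FGFR2 was called at 0.55 (limma adjusted p = 0.0262), but the groups overlapped at low levels, 2.64 to 2.98 in line 2 and 1.98 to 2.76 in the control on drug. Its limma adjusted p was 0.126 and 0.137 without control replicate 1 or 2, and 0.0663 and 0.114 without line 2 replicate 1 or 2. With only the 6 arrays fitted it was 0.202. Of 7 measured further kinases that cabozantinib inhibits, AXL fell by 0.44, to between 10.31 and 10.39 from between 10.72 and 10.86. MERTK fell by 0.50 (limma adjusted p = 0.0231), with an adjusted p of 0.0519 to 0.0935 without any of control replicates 1 and 3 or line 2 replicates 1 and 2. Of 8 measured ligands, FGF9 fell by 1.49. GAS6, the ligand of AXL and MERTK, rose by 0.56 against the control on drug (limma adjusted p = 0.0805 with only the 6 arrays fitted) and was 2.43 above DMSO. VEGFB was called at 0.29, and lost the call without any of 5 single arrays (limma adjusted p = 0.0552 to 0.0998).

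Interferon-stimulated genes were lower. Of 19 measured, 11 fell and 1 rose, with a median of -0.57. They are the antiviral genes that interferons switch on. IFI6 was at 5.65, 5.77 and 6.03 in line 2 and at 7.83, 8.19 and 8.35 in the control line (-2.31, SE 0.18, limma adjusted p = 4.3e-08). IFIT2, which binds viral RNA, fell by 1.66 on the log2 scale, IFI44L by 1.48 and IFI27 by 1.45. OAS3, an enzyme of the same pathway that activates RNase L, rose by 1.17. The count fell to 9 without control replicate 2 or 3 or line 2 replicate 1. Against DMSO, 4 of the 19 were lower and none higher, with IFI44 at -2.00 and IFI44L at -1.72. In the control line cabozantinib had raised 11 and lowered 2, where 10.3% of named genes rose.

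Of 3 measured genes of antigen presentation, B2M fell by 0.39 (limma adjusted p = 0.0518 with only the 6 arrays fitted) and NLRC5, the activator of MHC class I genes, rose by 0.88. Among 9 measured cytokine and NF-kB genes, the adhesion molecule ICAM1 fell by 1.11 and the cytokine LIF rose by 0.85. CCL2 (0.92) and CCL20 (0.38) were called, but each lost its call when any of 4 arrays (CCL2, limma adjusted p = 0.0644 to 0.125) or 3 arrays (CCL20, 0.0558 to 0.0947) was left out.

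The 12 largest falls were of varied function. In the control line cabozantinib had raised each of them, by 0.60 (B3GNT9) to 3.68 (MMP13), a contrast that uses the same control arrays on drug. Against DMSO, 9 of the 12 were called lower in line 2 and 0 higher, where 10.0% of named genes were lower. The 12 were picked as low on the same line 2 arrays, which favours low values here too. This count is therefore not a separate result. Uncalled were MMP13, CEMIP (-0.27, limma adjusted p = 0.545) and PSG1 (0.47, limma adjusted p = 0.253). COL1A1, a chain of type I collagen, was at 5.14, 5.16 and 4.90 in line 2 and at 8.04, 8.16 and 8.16 in the control line (-3.05, SE 0.10, limma adjusted p = 4.93e-12). On DMSO it was at 6.44, 6.20 and 6.26, so that line 2 was the lowest of the 3 groups. MMP13, a collagenase, was at 1.63, 1.24 and 1.44 in line 2, at 5.14, 4.86 and 5.10 in the control line on drug and at 1.39, 1.35 and 1.33 on DMSO. It fell by 3.60 on the log2 scale and its difference from DMSO was not called (0.08, limma adjusted p = 0.906). CEMIP, which takes part in the breakdown of hyaluronan, fell by 3.25, LAMA5, a laminin chain, by 2.71, and FBLN5, an elastic fibre protein, by 2.49. CDH3, P-cadherin, fell by 3.09, and its other probe set fell by 1.73.

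Over whole lists the direction was mixed. Of 14 measured matrix genes, 2 rose and 4 fell, among them LAMA3 by 1.36 and THBS1, thrombospondin 1, by 0.91. THBS1 was nonetheless above DMSO by 2.64 on the log2 scale. Of 14 measured proteases and their inhibitors, 4 rose and 3 fell, with SERPINB2, an inhibitor of plasminogen activators, higher by 2.42. MMP1, another collagenase, was at 8.24, 8.09 and 8.18 on DMSO and at 2.29 to 3.16 in line 2 and 2.50 to 3.36 in the control line on drug. Its difference was -5.38 between line 2 and DMSO and -0.22 between line 2 and the control on drug (limma adjusted p = 0.624); it was picked after its values were seen. Of 11 integrins, 3 rose and 4 fell. ITGA5 rose by 0.81 and ITGA10 by 0.96 (limma adjusted p = 0.0588 for ITGA10 with only the 6 arrays fitted), while ITGA3 fell by 0.72 and ITGA6 by 0.63. Of 15 epithelial and mesenchymal genes, EPCAM (-1.38) and CLDN7 (-1.18) fell, and TWIST2 (1.10) and CDH2 (0.61) rose. Of 10 genes of TGF-beta and BMP signalling, 3 fell and none rose, with ID3 at -1.48 and SMAD3 at -1.16. The third was TGFB1 at -0.52, which lost its call without control replicate 1 or line 2 replicate 1 or 2 (limma adjusted p = 0.0601 to 0.113).

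LMO3, a LIM-domain cofactor of transcription, fell by 3.70, from 8.45, 8.42 and 8.37 in the control line to 4.65, 4.69 and 4.78 in line 2. REEP6, which shapes the endoplasmic reticulum, fell by 3.70, SECTM1 by 3.30, B3GNT9 by 3.07 and SFTA3, which RefSeq does not list as protein-coding, by 2.80. PSG1 fell by 2.93. It belongs to a family of near-identical pregnancy-specific glycoprotein genes, so that its probe set may read several of them.

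**Figure D4:**
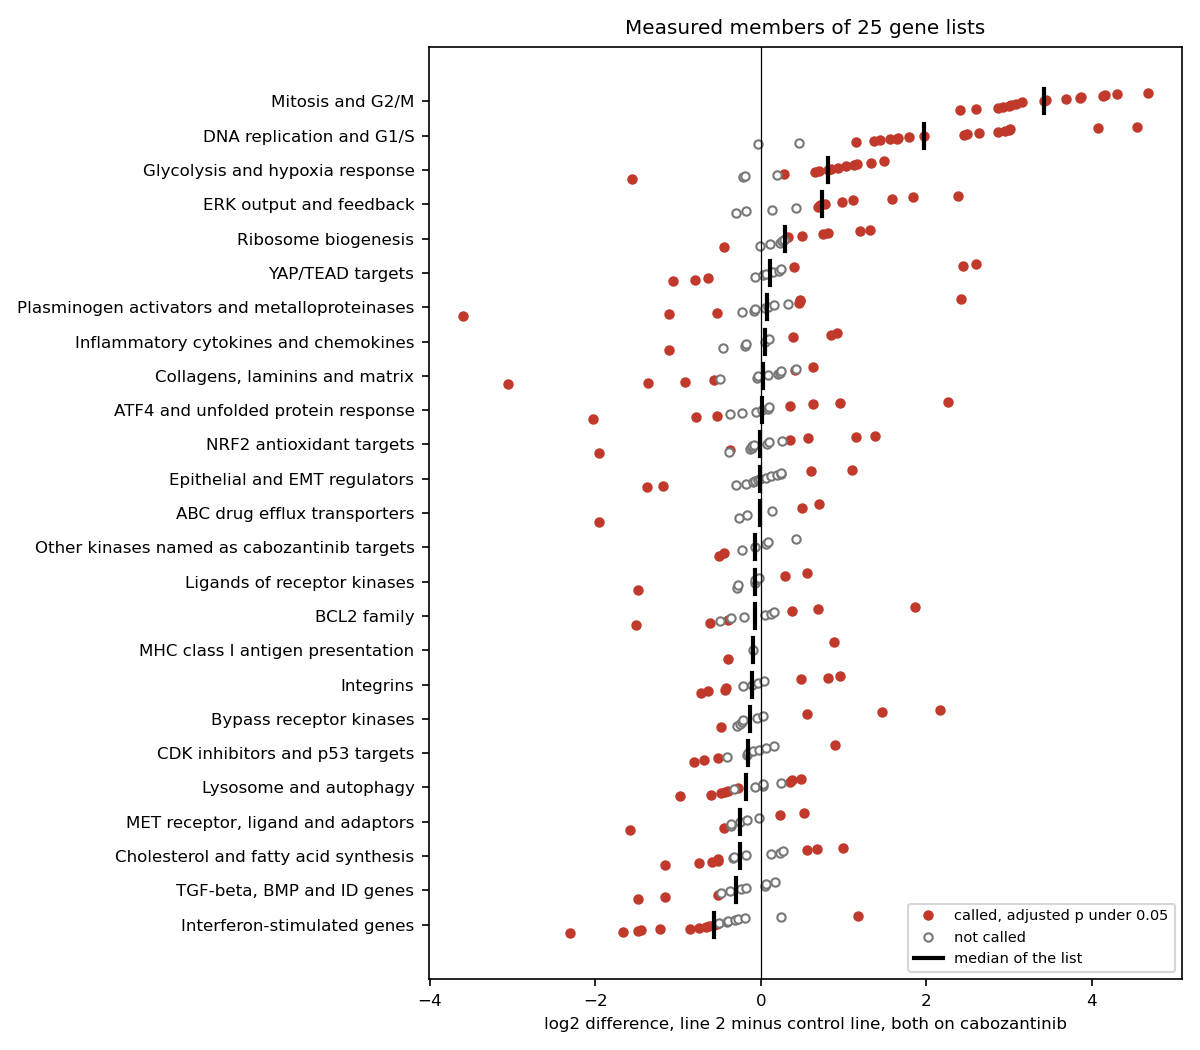
Log2 difference of line 2 minus the control line, both on cabozantinib, for each measured member of 25 gene lists, ordered by the median of the list. Filled points were called (limma adjusted p under 0.05), and the black bars are medians, from -0.57 for interferon-stimulated genes to 3.42 for mitosis.

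YAP and TEAD targets are genes of the Hippo pathway, which senses cell contact and tension. Of 12 measured, 3 rose and 3 fell against the control on drug, while against DMSO 8 were higher and none lower. ANKRD1, a widely used readout of the pathway, was at 9.38, 9.33 and 9.26 in line 2, 6.02, 7.78 and 6.84 in the control line on drug and 4.47, 4.59 and 4.12 on DMSO. Line 2 was above the former by 2.44 (SE 0.32, limma adjusted p = 2.01e-05) and above the latter by 4.93. The 3 control arrays on drug were widely spread, and all lay below line 2. F3, tissue factor, rose by 2.59, to between 5.62 and 5.79, and was at 4.30 to 4.49 on DMSO. CCN1 and AJUBA differed from the control on drug by 0.03 and -0.07, uncalled, and were above DMSO by 2.18 and 2.07. In the control line, cabozantinib had raised 7 of the 12 and lowered 2.

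Of 15 measured genes of glycolysis and the hypoxia response, 11 rose and 1 fell, with a median of 0.81. HK1, a hexokinase, rose by 1.33, ADM, adrenomedullin, by 1.49, the mitophagy gene BNIP3 by 1.16 and LDHA by 0.85. ALDOC was the member that fell, from 6.54, 6.90 and 6.55 to 4.93, 5.22 and 5.17. Of 13 ribosome biogenesis genes, 7 rose and 1 fell, led by WDR12 (1.32) and NCL, nucleolin (1.20). Against DMSO, 2 of the glycolysis genes were higher and 2 lower, and 2 of the ribosome genes higher and 4 lower.

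Stress and metabolic lists were divided. Of 13 genes of the ATF4 and unfolded protein response, 4 rose and 3 fell. SLC7A5, an amino acid transporter, rose by 2.26 and ATF3 fell by 2.03, from 5.77, 5.71 and 5.73 to 3.53, 3.81 and 3.78. Of 14 NRF2 targets, 4 rose and 2 fell, among them GCLM, of glutathione synthesis, at 1.38 and AKR1C3 at 1.15, whose close paralogs may share its probes. HMOX1 was called at 0.57, and its adjusted p was 0.0684 to 0.106 without any of 4 single arrays. Of 14 genes of cholesterol and fatty acid synthesis, 3 rose and 5 fell, with DHCR7, an enzyme of the last steps of the pathway, at -1.16 and the regulator SREBF1 at 1.00. Of 14 lysosome and autophagy genes, 3 rose and 6 fell against the control on drug, while 9 were above DMSO and none below. With only the 6 arrays fitted, 0 were called higher and 4 lower than the control on drug. GAA, the lysosomal glucosidase, was at 6.09, 5.98 and 6.08 in line 2, a difference of -0.98 from the control on drug and of 1.44 from DMSO. Of the calls in this list, MAP1LC3B (0.49) and GABARAPL1 (-0.61) were lost without any of 3 and of 5 single arrays, at limma adjusted p = 0.0663 to 0.106 and 0.0527 to 0.135.

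Of 12 measured members of the BCL2 family, which sets the threshold of apoptosis, 3 rose and 3 fell. BCL2, which protects cells, was at 5.13, 5.01 and 5.06 in line 2 and at 3.32, 3.15 and 3.14 in the control line (1.87, SE 0.13, limma adjusted p = 8.6e-09). BMF, which promotes apoptosis, fell by 1.51, from between 5.42 and 5.59 to between 3.79 and 4.07, and BAX, which also promotes it, rose by 0.69. BIK was called at -0.61, and without control replicate 2 it was at -0.32 (limma adjusted p = 0.206). It also lost its call without any of the line 2 arrays (0.0579 to 0.107). MCL1 fell by 0.39 and BCL2L1 rose by 0.37. Of 11 cell cycle inhibitors and p53 targets, CDKN1B, which encodes p27, fell by 0.81, XPC by 0.68 and MDM2 by 0.52, and PLK3 rose by 0.89. From DMSO, line 2 differed by 0.27 in CDKN1B (limma adjusted p = 0.0338) and 0.26 in XPC (limma adjusted p = 0.0666). For MDM2 and PLK3 these differences were -1.17 and -0.35. MDM2 was not called with only the 6 arrays fitted (limma adjusted p = 0.123). Of 6 drug efflux transporters of the ABC family, ABCC4 (0.50) and ABCC5 (0.70) rose and ABCC3 (-1.95) fell. With only the 6 arrays fitted ABCC5 was not called (limma adjusted p = 0.0528).

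Line 2 was then set against line 1, which had been selected in the same drug. Of named genes, 6.11% were higher in line 2 and 8.68% lower. In probe sets these were 1364 (3.98%) and 1927 (5.63%), 9.61% in either direction. At least 2-fold, 154 probe sets were higher (0.450%) and 330 lower (0.964%). Of all calls 41.4% were higher, and 34.2% when the arrays were shifted to the same median. The 12 largest rises of line 2 over the control were not called between the lines, with differences of -0.60 to 0.38. Of the 17 mitosis genes 1 was called, UBE2C at 0.63, and 95% intervals lay within 2-fold for 10 of them. The pooled spread takes in the widely spread control arrays on drug, so the absence of a call does not show equal levels here either. PLK1 was uncalled, yet its lowest array was 8.93 in line 2 and its highest 8.65 in line 1. BUB1, also uncalled, differed the other way, with its highest array at 7.48 in line 2 and its lowest at 7.97 in line 1. Of the 12 largest falls, 4 were lower in line 2 than in line 1 and 4 higher.

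Of the 19 interferon-stimulated genes, 15 were lower in line 2 than in line 1 and none higher, with a median of -0.89. OASL was at 4.77, 4.62 and 4.36 in line 2 and at 6.68, 6.33 and 6.41 in line 1 (-1.89, limma adjusted p = 1.27e-05). Of 14 NRF2 targets 7 were lower in line 2 and 1 higher, and of 15 glycolysis genes 6 were higher and none lower. PMAIP1, which encodes the apoptosis promoter NOXA, was at 4.76, 4.75 and 5.10 in line 2 and at 6.10, 6.09 and 6.29 in line 1; it was picked after its values were seen. Among receptors, DDR2, a collagen receptor, differed by -1.24 and IGF1R by 0.50.

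Single genes differed strongly between the lines. SERPINB2 was at 5.20, 5.02 and 4.96 in line 2 and at 8.91, 8.87 and 8.55 in line 1, against 1.98 to 3.05 in the control line on drug. Line 2 was thus above the control by 2.42, and its difference from line 1 was -3.72 (SE 0.29, limma adjusted p = 1.4e-07). HSPG2, the basement membrane proteoglycan perlecan, was at 4.35, 4.36 and 4.15 in line 2 and at 7.39, 7.17 and 7.30 in line 1. GNA15, a G protein subunit, was at 3.76, 3.62 and 3.32 in line 2 and at 5.62 to 5.92 in the control line, 6.36 to 6.65 in line 1 and 6.41 to 6.68 on DMSO. Line 2 was the lowest of these groups. MYL9, a myosin light chain of contractile cells, was at 7.52 to 7.94 in line 1 and at 3.83 to 4.49 in line 2. Its fall against the control, by 0.62, lost its call without control replicate 1 or 3 or line 2 replicate 1 (limma adjusted p = 0.0891 to 0.177).

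Higher in line 2 were OLFML2B, an olfactomedin-like matrix protein, at 8.41, 8.51 and 8.44 against 5.96, 5.92 and 5.57 in line 1, and PALMD at 5.13 to 5.43 against 2.85 to 3.25. OLFML2B rose against the control by 0.64, with an adjusted p of 0.0676 without control replicate 3. LIPG, endothelial lipase, was higher than in line 1 by 2.20. PTGFRN, a membrane regulator of the prostaglandin F2-alpha receptor, was at 4.03, 4.14 and 4.02 in line 2 and between 1.70 and 2.39 in line 1 and both control groups.

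**Figure D5:**
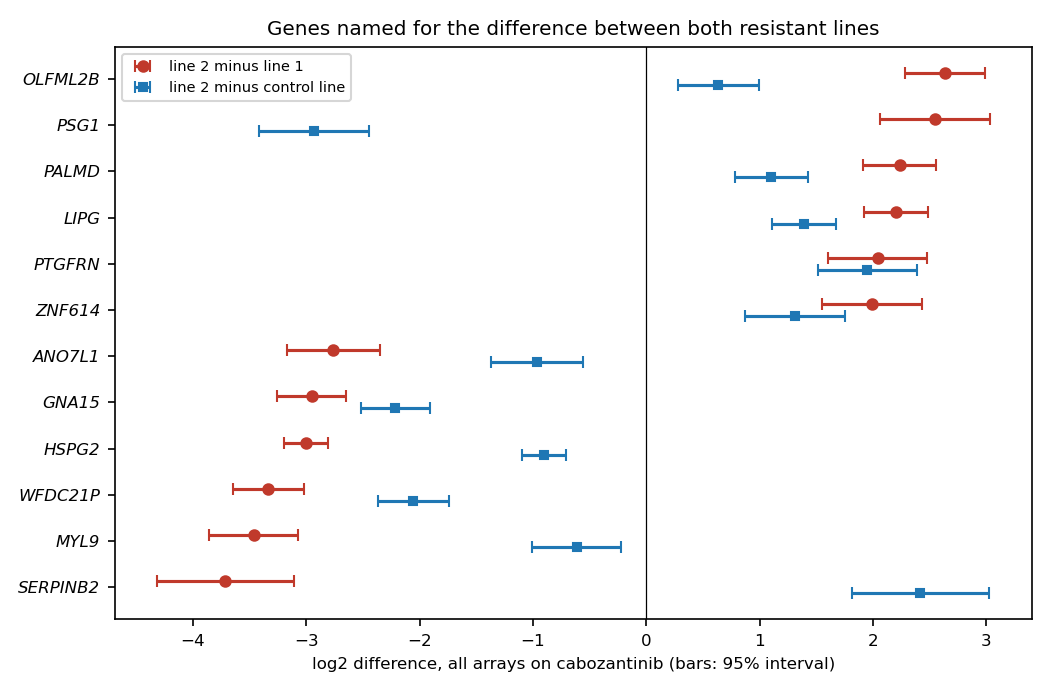
Log2 difference of line 2 minus line 1 (red circles) and minus the control line on cabozantinib (blue squares) with 95% intervals from limma, for the 12 genes chosen by the difference between the lines. PSG1 and SERPINB2 have opposite signs in the comparisons, and SERPINB2 is at -3.72 and 2.42.

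Of 18253 named genes, line 2 was called above both control groups in 599 and below both in 627. These counts leave out set name patterns and genes with a mean under 5 in all of these groups. These genes were ranked by the smaller of the differences from the control line on cabozantinib and on DMSO, by a rule set after values were seen. The first 6 each way are given. MYOSLID, a long noncoding RNA known from smooth muscle cells, was at 8.77, 8.76 and 8.64 in line 2, 4.49, 5.22 and 5.12 in the control on drug and 4.92, 4.86 and 4.67 on DMSO. Line 1 was in between, at 7.02, 6.92 and 6.84. TBX3, a T-box transcription factor, was above the control on drug by 3.49 and above DMSO by 2.79. SP140, a chromatin reader otherwise known from leukocytes, was at 7.85, 8.08 and 7.91 against 4.70, 4.71 and 4.09 in the control on drug and 5.76, 5.69 and 5.54 on DMSO. CRYM (2.69 and 2.40) and ATP8A2 (2.28 and 2.32) were the others beside ANKRD1. All 6 were also called higher in line 1 than in the control on drug, by 1.19 to 2.90, on the same control arrays. Of the 6, 3 were called higher in line 2 than in line 1.

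Below both control groups were PLEK2, a pleckstrin family protein, at 4.08, 3.28 and 3.72 in line 2, 5.89, 6.10 and 5.83 in the control on drug and 7.67, 7.77 and 7.81 on DMSO. IL1RL1, the receptor of interleukin 33, was at 2.63 to 2.97 in line 2, 5.00 to 5.19 in the control on drug and 5.65 to 5.94 on DMSO. CRABP2, a retinoic acid binding protein, differed by -2.18 and -2.41, and B3GNT9, LMO3 and GNA15 were the rest of the 6. Of these 6, 4 were also called lower in line 1 than in the control on drug, and 1 was called higher. Between the lines, 5 of the 6 were called lower in line 2.

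The crizotinib arrays share none with the comparison above. They entered the same fit, however, and their control arrays are of the same control line, so they are not a fully separate check. Of the 12 largest rises of line 2, 12 were also called higher in crizotinib-resistant line 1 than in the control line on crizotinib (2.76 to 4.29), and 12 in crizotinib-resistant line 2 (2.71 to 3.64). Of all named genes, 13.8% and 12.2% were called higher there. Of the 12 largest falls, 11 and 10 were called lower, where 10.9% and 8.82% of named genes were. The exceptions were CDH3 in crizotinib-resistant line 1 (-0.41, limma adjusted p = 0.136) and SECTM1 (-0.23) and CEMIP (-0.59) in the other line. Of the 6 genes named above both control groups, 5 and 6 were called higher in these lines, and of the 6 below both, 4 and 6 lower. PLEK2 differed by -0.31 (limma adjusted p = 0.357) and -0.77, and SLC7A5 was higher by 3.59 and 2.73.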

How the data were processed

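Total RNA of 21 samples was hybridised to Affymetrix arrays. Per the submitters' processing notes, the authors summarised the deposited log2 values by RMA, which corrects background, quantile-normalizes and summarizes probes per probe set. The sources used here give no version, probe set definition or build. Of 34236 rows, 34235 had all values. Symbols came from a second deposited table with log2 values, whose 21 columns match no sample label. They served only as a key: rows with the same sorted values (tolerance 1e-08) were joined, 18880 to exactly 1 probe set. 29 rows matched several and 14 names had become dates, and these were left out. 490 symbols were updated through RefSeq, and 18253 remained. The probe set with the highest mean stood for its gene.

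All 21 arrays entered 1 model of 7 group means (limma 3.58.1, lmFit and eBayes, R 4.3.3), leaving 14 degrees of freedom for the spread, with 2.87 more from the prior, adjusted by Benjamini-Hochberg. The fit was tested on simulated data with 1 spread per probe set shared by all groups, so unequal spreads between groups were not covered. Only 3 arrays per group limit the precision. The p-values set each difference against 1 spread per probe set, pooled within the 7 groups over all 21 arrays. They do not use the spread of the compared arrays alone.

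Named were the 12 largest rises and falls called, without overlap between the groups and with a mean of at least 5 in the higher group, leaving out symbols of set name patterns (LOC, LINC, MIR, antisense and open reading frame names and the like), which does not remove every noncoding gene. Further named were up to 4 called members per list and the 6 largest differences each way between the lines among genes called in both comparisons. MET was to be named but is not analysed here. Other list members, and the genes outside both control groups, were picked after their values were seen. Members and lists were chosen with earlier results of these data known. Over all probe sets, deviations of same-numbered arrays of line 2 and the control line on cabozantinib correlated at -0.002 to 0.020. The numbers were therefore not taken to pair these groups. Other groups were not checked this way, and replicate 2 of the control line was the highest on both drugs for AURKB and DLGAP5. Alternatives were the 6 arrays alone, other scalings, brighter probe sets, trend and robust priors, a replicate block, 1 probe set per symbol and leaving out each array.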

Additional observations from a re-analysis of the deposited data

Results flagged for a closer look

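The difference between both cabozantinib-resistant lines under the same drug was tested directly, and 3291 probe sets passed (limma adjusted p under 0.05), 9.61% of those tested. The 12 genes named for that difference follow as log2 differences of line 2 minus line 1. Higher in line 2 were OLFML2B (2.64), PSG1 (2.55), PALMD (2.23), LIPG (2.20), PTGFRN (2.04) and ZNF614 (1.99). Lower were SERPINB2 (-3.72), MYL9 (-3.46), WFDC21P (-3.34), HSPG2 (-3.00), GNA15 (-2.95) and ANO7L1 (-2.76).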

How the results depend on the processing

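With the 6 arrays fitted alone, 3979 probe sets were called between line 2 and the control line, against 5794 in the fit of all arrays. Those called lower in line 2 numbered 1637, against 2502. Fewer samples entered the fit of the 6 arrays. Leaving out each array in turn gave 4835 to 5226 calls against the control line, 2749 to 2986 higher and 2086 to 2284 lower, and 2561 to 2648 against line 1. With the replicate number as a block, 5729 probe sets were called against the control line and 3264 against line 1, and the block ended the call of CBL alone among the named genes (limma adjusted p = 0.0552). Of 1789 values of named genes under the alternatives, 66 lost their call and none changed sign. The losses included small differences such as CBL (0.23) and VEGFB (0.29) and larger ones such as CCL2 (0.92) and ITGA10 (0.96). With the 6 arrays alone, list members called higher numbered 0 of 8 ligands (2 in the fit of all arrays), 0 of 14 lysosome genes (3), 1 of 11 integrins (3), 1 of 9 MET adaptors (2), 1 of 6 ABC transporters (2), 1 of 14 matrix genes (2) and 2 of 14 NRF2 targets (4). Those called lower numbered 1 of 12 BCL2 family members (3), 1 of 14 NRF2 targets (2) and 0 of 3 antigen presentation genes (1). Interferon-stimulated genes called lower numbered 9 to 12 over all alternatives, glycolysis genes called higher 10 or 11, ERK genes called higher 7 to 9, and mitosis and replication genes 17 in each. An unadjusted p under 0.05 was reached by 8882 probe sets. The table has no measure of signal over background, so differences of low levels may be understated.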
